A study of Mus musculus with 8 samples.

Results

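Xk, Lancl3, Stbd1 and Tacc2 are 4 of the 35896 genes in a count table from mouse aorta. They are little studied in the vessel wall. They were selected on their levels in the AngII and AngII+3W libraries against the control group (CTRL), being low when an infusion of angiotensin II (AngII) ended and still low 3 weeks later. These values are given below as a description without a test. The AngII+2W libraries were not used to choose the genes, and the comparisons that hold them are tested.

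Male C57BL6 mice, 11 weeks old at the start, carried osmotic minipumps that delivered AngII, the peptide hormone that constricts vessels and raises blood pressure, at 2.8 mg/kg/day for 2 weeks. The mice were sacrificed when the infusion ended (AngII), or 2 weeks (AngII+2W) or 3 weeks (AngII+3W) later. CTRL aortas came from untreated littermates of the same age, and their labels give no time of sampling. Each group had 2 libraries, each library pooled tissue of 2 mice, and the 8 libraries together held 16 mice. A pool hides the spread between its animals, so an SD below is the spread between 2 pools.

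The 4 genes encode proteins with separate roles. Xk encodes a membrane protein of the family of phospholipid scramblases, which move lipids between the leaflets of a membrane. XK is joined to the Kell protein on red cells, binds the lipid transfer protein VPS13A, and is missing in McLeod syndrome, a disorder of nerve, muscle and red cells. Lancl3 encodes a member of the LanC-like family, which is named after bacterial enzymes that make lanthionine-containing peptides, and little is known of what it does in mammals. Stbd1 encodes starch binding domain protein 1, which binds glycogen, sits on membranes of the endoplasmic reticulum and is thought to carry glycogen to the lysosome through GABARAP-type autophagy proteins. Tacc2 encodes a transforming acidic coiled-coil protein of centrosomes and microtubules.

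The genes lie at 3 places in the genome (build GRCm38, GENCODE M21 annotation). Lancl3 (ENSMUSG00000047344, chrX:9199902-9268085) and Xk (ENSMUSG00000015342, chrX:9272756-9313250) stand head to tail on the plus strand, with 4670 bp between the end of Lancl3 and the start of Xk. Stbd1 (ENSMUSG00000047963, chr5:92603041-92606579) spans 3.54 kb and Tacc2 (ENSMUSG00000030852, chr7:130577438-130764785) spans 187 kb, both on the plus strand. All are protein-coding. Xk and Lancl3 have 1 annotated transcript each, Stbd1 has 3, and Tacc2 has 18.

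The sequence ahead of the start of Xk, Lancl3 and Stbd1 is shown because these starts share a base composition that the choice of the genes did not use. The letters are from the RefSeq promoter windows of GRCm38.p6 (250 bases before to 50 after a start), printed 5′ to 3′ on the plus strand up to the base before the GENCODE gene, for Xk chrX:9272534-9272755, for Lancl3 chrX:9199723-9199901 and for Stbd1 chr5:92602801-92603040. Capitals mark GC boxes (GGGCGG, or CCGCCC on the other strand) and, in Stbd1, the CArG box CCTTAAAAGG.
Xk: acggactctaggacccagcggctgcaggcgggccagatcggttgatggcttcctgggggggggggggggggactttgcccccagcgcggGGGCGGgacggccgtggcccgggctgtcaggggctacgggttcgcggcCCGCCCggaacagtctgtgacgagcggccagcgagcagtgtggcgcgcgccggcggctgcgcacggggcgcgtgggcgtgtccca
Lancl3: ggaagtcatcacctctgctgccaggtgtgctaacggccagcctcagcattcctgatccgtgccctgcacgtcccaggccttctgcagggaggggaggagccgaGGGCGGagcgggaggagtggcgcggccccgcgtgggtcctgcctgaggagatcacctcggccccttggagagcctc
Stbd1: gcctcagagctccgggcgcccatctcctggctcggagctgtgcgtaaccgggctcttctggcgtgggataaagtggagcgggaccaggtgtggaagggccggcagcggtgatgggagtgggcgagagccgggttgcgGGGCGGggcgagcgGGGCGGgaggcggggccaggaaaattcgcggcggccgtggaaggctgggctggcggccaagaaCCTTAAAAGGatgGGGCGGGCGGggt

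Over the full windows of 300 bases the GC content was 78.0% for Xk, 69.0% for Lancl3 and 70.7% for Stbd1, against a median of 52.7% over all 32851 RefSeq windows, of which 5% were above 73.7%. The windows held 39, 23 and 28 CpG dinucleotides, against a median of 7 and with 5% of all windows above 37. The share of all windows as rich in GC or CpG as those of Lancl3 and Stbd1 was not counted. Tacc2 has 2 windows in the table, with a GC content of 50.7% and 55.3% and 7 and 11 CpGs, so that it did not share this composition. GC boxes, searched on both strands, were found 2 times in Xk, 2 times in Lancl3, 4 times in Stbd1 (of which 2 overlap) and 1 time in 1 window of Tacc2, and 35.7% of all windows hold one. The CArG box is the element bound by serum response factor at many smooth muscle genes. It was searched on both strands as CC, then 6 letters A or T, then GG, and was found in Stbd1 alone among the 4, with 26 bases between the match and the RefSeq start. Of all windows 1.63% hold one, and of the 10 smooth muscle contractile genes with a window 1 (Myl9) does. TATAAA and the E-box CACGTG, also searched on both strands, are held by 13.6% and 7.15% of all windows and were not found in the 5 windows of the 4 genes. A match is a string of letters and says nothing of binding. A CArG box with another letter, or outside the window, could not be found by this search.

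Levels are given in CPM, the counts of a gene per 1000000 counts of its library after TMM scaling of the library sizes. Library totals were between 18130441 and 21498200 counts, and 3 counts, taken as the limit of detection, are 0.140 to 0.165 CPM. The 4 genes had 66 to 7142 counts in every library, and all 4 passed the filter on low counts, which kept 17182 genes. The markers of the tissue were present: Acta2, Myh11, Tagln and Cnn1 of smooth muscle summed to between 1323 and 8289 CPM, and endothelial markers to between 637 and 881 CPM. Markers of white and brown fat, red cells and striated muscle were also detected, so that the libraries hold more than the vessel wall. The library AngII+3W replicate 1 stood apart in skeletal muscle markers, with 2359 CPM against 5.32 to 73.8 CPM in the other 7 libraries. Its cardiac muscle markers were at 5149 CPM, against 314 CPM in AngII+3W replicate 2 and 4478 and 1958 CPM in the CTRL pair. The fold changes of the 4 genes that hold AngII+3W are given also without it.

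The level of Xk was 33.9 and 23.1 CPM in the CTRL pair of libraries, 7.83 and 7.25 in the AngII pair, 15.7 and 13.1 in the AngII+2W pair, and 8.71 and 7.84 in the AngII+3W pair. Both CTRL libraries were the highest and differed from each other more than those of any other group. The AngII+2W libraries lay between, above both neighbouring groups without overlap. The group means were 28.5 ± 7.58, 7.54 ± 0.409, 14.4 ± 1.83 and 8.28 ± 0.611 CPM (SD, n = 2), so that AngII stood at 26.5% of CTRL, AngII+2W at 50.5% and AngII+3W at 29.0%. The log2 fold change against CTRL was -1.92 (SE 0.214) in AngII and -1.78 (SE 0.213) in AngII+3W, given as a description, and -1.86 (SE 0.281) in AngII+3W without its replicate 1.

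For Lancl3 the CTRL pair had 26.3 and 16.2 CPM, the AngII pair 3.56 and 3.32, the AngII+2W pair 10.4 and 7.84, and the AngII+3W pair 4.84 and 3.65. It had the order of Xk in all 8 libraries, with AngII replicate 2 the lowest and CTRL replicate 1 the highest. The group means were 21.2 ± 7.09, 3.44 ± 0.174, 9.10 ± 1.78 and 4.25 ± 0.837 CPM (SD, n = 2), which is 16.2%, 42.8% and 20.0% of CTRL for the 3 AngII groups. The log2 fold change against CTRL was -2.62 (SE 0.291) in AngII and -2.32 (SE 0.286) in AngII+3W, the lowest values of the 4 genes in both, and -2.54 (SE 0.368) in AngII+3W without its replicate 1.

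For Stbd1 the CTRL pair had 39.5 and 33.7 CPM, the AngII pair 10.7 and 15.4, the AngII+2W pair 18.5 and 20.7, and the AngII+3W pair 11.2 and 15.4. The ranges of AngII and AngII+3W overlapped, and AngII+2W lay above both and below CTRL. The group means were 36.6 ± 4.09, 13.0 ± 3.26, 19.6 ± 1.51 and 13.3 ± 2.96 CPM (SD, n = 2), which is 35.7%, 53.6% and 36.4% of CTRL for the 3 AngII groups. The log2 fold change against CTRL was -1.48 (SE 0.223) in AngII and -1.46 (SE 0.223) in AngII+3W, and -1.25 (SE 0.248) in AngII+3W without its replicate 1.

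For Tacc2 the CTRL pair had 348 and 289 CPM, the AngII pair 99.3 and 97.6, the AngII+2W pair 143 and 154, and the AngII+3W pair 186 and 198. It had another course: its level was higher in each later group after AngII, with no overlap, and AngII+3W lay nearest to CTRL. The share of all genes tested that have this order was not counted, and the choice of Tacc2 as low in AngII favors it in part. The group means were 318 ± 41.7, 98.5 ± 1.19, 148 ± 7.29 and 192 ± 8.60 CPM (SD, n = 2), which is 30.9%, 46.6% and 60.4% of CTRL for the 3 AngII groups. The log2 fold change against CTRL was -1.69 (SE 0.140) in AngII and -0.73 (SE 0.137) in AngII+3W, and -0.69 (SE 0.176) in AngII+3W without its replicate 1.

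**Figure D1:**
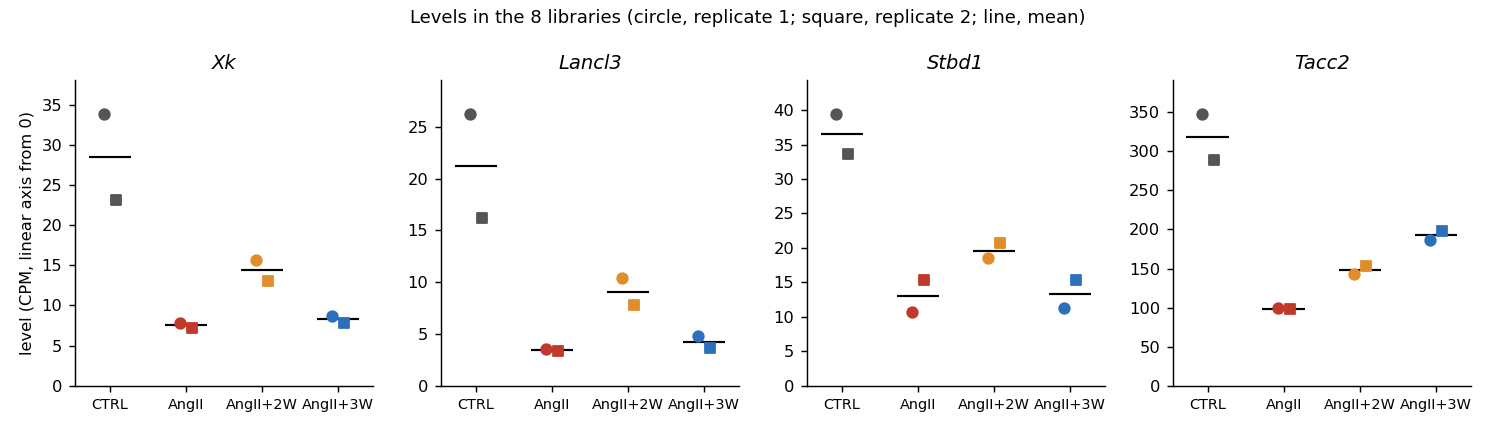
Levels of Xk, Lancl3, Stbd1 and Tacc2 in CPM (linear axes from 0) in the 8 libraries, 2 for each group; circles are replicate 1, squares replicate 2, and lines the group mean. All AngII libraries lie below both CTRL libraries, and Tacc2 alone is higher in AngII+3W, with a mean of 192 CPM, than in AngII+2W, with 148 CPM.

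Every library of the 3 AngII groups was below both CTRL libraries for each of the 4 genes, an order that 7.04% of all genes tested share and that the choice of the genes fixes in part. Per kb of exon, which lets genes be compared, the CTRL levels were 20.7 CPM for Tacc2, 16.5 CPM for Stbd1, 5.62 CPM for Xk and 5.32 CPM for Lancl3. The levels of Xk and Lancl3 per kb overlapped in CTRL, while Stbd1 and Tacc2 lay above both of them. In AngII+2W the order of the means was the same, at 9.63, 8.83, 2.84 and 2.28 CPM per kb. These values use all annotated exons of a gene and depend, for Tacc2 above all, on which of its transcripts are present.

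The first question for which the genes were not chosen is whether they were still low 2 weeks after the infusion. All 4 were, with log2 fold changes of AngII+2W against CTRL near -1, and none passed the adjustment over all genes. Xk was at -0.98 (SE 0.206, 95% interval -1.46 to -0.51), with an adjusted p of 0.210 in the quasi-likelihood F test of edgeR, adjusted by Benjamini-Hochberg over 17182 genes. Lancl3 was at -1.22 (SE 0.271, interval -1.85 to -0.59), with an adjusted p of 0.226 in the same edgeR test. Stbd1 was at -0.90 (SE 0.219, interval -1.41 to -0.39), with an adjusted p of 0.268 in the same edgeR test. Tacc2 was at -1.10 (SE 0.138, interval -1.42 to -0.78), with an adjusted p of 0.174 in the same edgeR test. No gene passed here (0 of 17182, 0%), while 10.7% of genes had an unadjusted p under 0.05 and 6.18% had one and were lower, the 4 genes among them. DESeq2, run as an alternative, called 373 genes (2.17%), with all 4 among them at adjusted p-values of 0.0127 for Xk, 0.0120 for Lancl3, 0.0289 for Stbd1 and 2.61e-08 for Tacc2. The CTRL libraries are shared with the comparisons that chose the genes, and a high level in CTRL moves all 3 alike. Without CTRL replicate 1, the highest library for each gene, the log2 fold changes were -0.67 for Xk, -0.82 for Lancl3, -0.77 for Stbd1 and -0.95 for Tacc2.

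The second question is whether the levels were higher 2 weeks after the infusion than at its end, a comparison without CTRL that shares the AngII libraries with the choice. The estimates were above 0 for all 4, at 0.93 for Xk (SE 0.212, 95% interval 0.44 to 1.43), 1.40 for Lancl3 (SE 0.287, interval 0.74 to 2.07), 0.58 for Stbd1 (SE 0.222, interval 0.07 to 1.10) and 0.59 for Tacc2 (SE 0.137, interval 0.27 to 0.91). The adjusted p-values of edgeR's test were 0.105, 0.0847, 0.264 and 0.110, so that none of the 4 passed. Among all genes 0.163% passed in this comparison and 0.0233% passed and were higher. An unadjusted p under 0.05 and a higher level, which all 4 had, was seen in 6.57% of all genes. DESeq2 called Xk, Lancl3 and Tacc2 here, with adjusted p-values of 0.0215, 0.00280 and 0.0131. Over all genes it called 685 (3.99%) in this comparison. The estimate for Stbd1 was 0.34 without AngII replicate 1, the lower of the AngII pair.

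The third question is how the levels 3 weeks after the infusion compared with those at 2 weeks. Xk was lower in AngII+3W than in AngII+2W by a log2 fold change of -0.80 (SE 0.212, 95% interval -1.29 to -0.31), Lancl3 by -1.10 (SE 0.284, interval -1.76 to -0.44) and Stbd1 by -0.56 (SE 0.222, interval -1.07 to -0.04). Tacc2 was at 0.37 (SE 0.137, interval 0.06 to 0.69), with both AngII+3W libraries above both AngII+2W libraries. Without AngII+3W replicate 1 the values were -0.88, -1.32, -0.35 and 0.42, so that the estimate for Stbd1 was over 1.5 times closer to 0. None passed in edgeR's test, with adjusted p-values of 0.391 for Xk and Lancl3, 0.532 for Stbd1 and 0.479 for Tacc2. No gene of the table passed in this comparison (0%), and 8.83% had an unadjusted p under 0.05, the 4 genes among them. The AngII+3W libraries are shared with the choice. Between AngII+3W and AngII, both used by the choice, the log2 fold changes were 0.13 for Xk, 0.30 for Lancl3, 0.03 for Stbd1 and 0.97 for Tacc2, and 0.07, 0.10, 0.25 and 1.02 without AngII+3W replicate 1. The value for Stbd1 changed sign with other settings. AngII+2W thus lay below CTRL and above both AngII and AngII+3W, library by library, for Xk, Lancl3 and Stbd1 and not for Tacc2, an order that 1.53% of all genes tested had and that the choice of the genes, low in AngII and AngII+3W, favors.

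**Figure D2:**
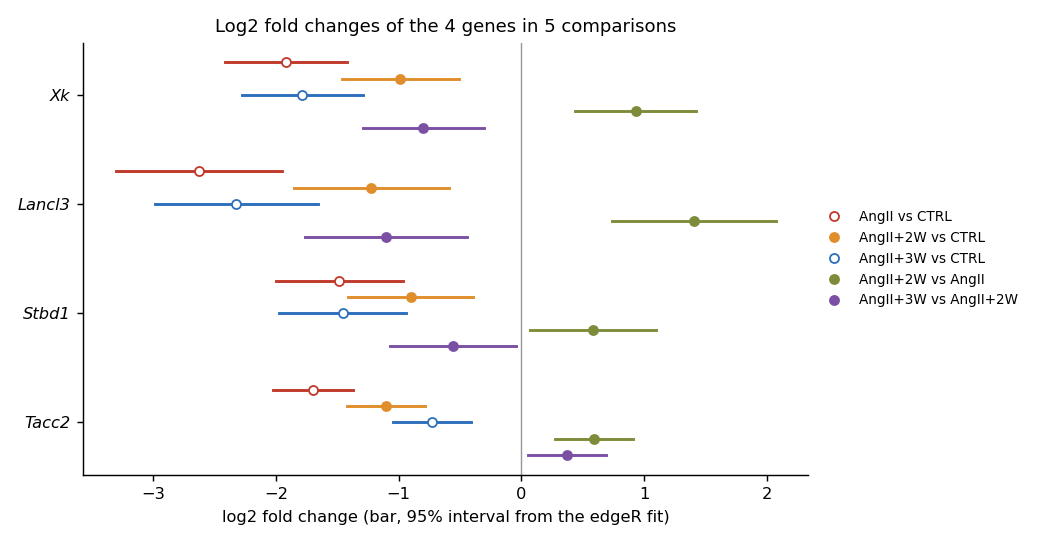
Log2 fold changes of the 4 genes (x axis) in 5 comparisons, with 95% intervals from the edgeR fit as bars. Open points are the 2 comparisons that chose the genes and filled points the 3 that did not; in AngII+3W against AngII+2W, Tacc2 lies at 0.37 while Xk, Lancl3 and Stbd1 lie at -0.80, -1.10 and -0.56.

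Xk and Lancl3, the neighbours on chromosome X, kept close to each other. Over the 8 libraries the Pearson correlation of their log2 CPM was 0.997, with a Spearman correlation of 1, and Lancl3 was the gene most like Xk, and Xk the gene most like Lancl3, among 17181 others. The 8 libraries fall into 4 groups that differ for both genes, so the correlation describes the group means above all. The ratio of Lancl3 to Xk counts was not constant. CTRL libraries had 0.776 and 0.701, AngII libraries 0.455 and 0.458, AngII+2W libraries 0.661 and 0.598, and AngII+3W libraries 0.556 and 0.466. The ratio was highest in CTRL and lowest in AngII, and no groups overlapped, so that Lancl3 was lowered more than Xk after AngII. The ratio of Tacc2 to Xk counts was between 9.13 and 13.5 in CTRL, AngII and AngII+2W, and was 21.4 and 25.3 in AngII+3W.

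The other correlations among the 4 were 0.927 for Xk and Stbd1, 0.912 for Lancl3 and Stbd1, 0.790 for Xk and Tacc2, 0.790 for Lancl3 and Tacc2, and 0.776 for Stbd1 and Tacc2 (n = 8 libraries, as a description). After Lancl3, the genes most like Xk were Bnip2, at 0.987, and Gucy1b1, a subunit of the soluble guanylate cyclase that answers to nitric oxide, at 0.984. The gene most like Lancl3 after Xk was Jam3, a junctional adhesion molecule, at 0.985. Those most like Stbd1 were the kinase gene Map3k6 at 0.988, Pbxip1 at 0.987 and Smad7, an inhibitor of TGF-β signaling, at 0.985. Those most like Tacc2 were Plxnb1, a semaphorin receptor, Coch, an extracellular protein, and the potassium channel gene Kcnh2, each at 0.987. Correlations above 0.9 were common, with 174 genes for Xk, 155 for Lancl3, 260 for Stbd1 and 126 for Tacc2. The mean level of Gucy1b1, taken through CTRL, AngII, AngII+2W and AngII+3W, was 68.2, 22.8, 34.9 and 26.6 CPM, the order of Xk. That of Kcnh2 was 37.9, 12.9, 20.2 and 26.3 CPM in the same groups, the order of Tacc2. Bnip2 varied over a small range, with means of 105, 83.9, 93.9 and 83.7 CPM in the same groups. Its lowest mean was in AngII+3W, while that of Xk was in AngII. A high correlation thus did not mean a like fold change.

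The other genes of the families did not follow. The table lists 12 genes of the XK family and its partners, of which 8 were tested. None passed in edgeR's test when the AngII, AngII+2W and AngII+3W groups were set against CTRL, where 5.1%, 0% and 0.285% of all genes passed. At an unadjusted p under 0.05 there were 1, 1 and 2 of the 8, all higher, beside 10.9%, 4.52% and 5.34% of all genes that were so and higher. Their median log2 fold changes were 0.01, 0.22 and 0.23, beside medians of -0.01, 0.00 and 0.03 over all genes tested. Xkr8, the scramblase that exposes phosphatidylserine on dying cells, was at 6.27 ± 1.77 CPM in CTRL and 6.25 ± 0.816 CPM in AngII (SD, n = 2), and Xkr4, Xkr6 and Xkrx were at 3.15, 3.05 and 3.18 CPM in CTRL, with log2 fold changes of -0.38, 0.02 and -0.18 in AngII. Vps13a, the partner of XK, was at 140 ± 1.68 CPM in CTRL and 144 ± 20.5 CPM in AngII, and its log2 fold changes in the 3 AngII groups, in order of time, were 0.04, 0.51 and 0.47 (SE 0.179 for each). Its relatives Vps13b, Vps13c and Vps13d were at 0.05, 0.47 and -0.05 in AngII. Xkr5, Xkr7, Xkr9 and Kel had too few counts to be tested. Kel, the other part of the red cell complex, had at most 4 counts in a library.

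The LanC-like family has 2 other genes. Lancl1, a glutathione-binding protein, was at 22.0 ± 0.403 CPM in CTRL and 17.0 ± 0.466 CPM in AngII (SD, n = 2), a log2 fold change of -0.37 (SE 0.128) with an adjusted p of 0.155 in edgeR's test, while the later groups were at 0.04 and -0.03. Lancl2 was at 13.3 ± 0.160 CPM in CTRL, with log2 fold changes of 0.26, 0.20 and 0.39 in the 3 AngII groups. Neither passed in any of the 3 comparisons. At an unadjusted p under 0.05, 1 of the 2 was lower in AngII and 1 was higher in AngII+3W, beside 20.2% and 12.5% of all genes in either direction.

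None of the 6 genes of the TACC family and its partners passed in the 3 comparisons, and 0 of 6 had an unadjusted p under 0.05, which 20.2%, 10.7% and 12.5% of all genes had. Their median log2 fold changes in order of time were 0.12, 0.02 and -0.23. Tacc1 was at 319 ± 16.7 CPM in CTRL and 271 ± 25.8 CPM in AngII, and had log2 fold changes of -0.23, -0.24 and -0.24. Tacc3, which is bound to the mitotic spindle, was at 0.53, -0.28 and -0.28, and the kinase gene Aurka, under 1.5 CPM in every group mean, was at 0.95, 0.30 and 0.17. Ckap5 and Cltc, which form a spindle complex with TACC3, were at 0.04 and 0.19 in AngII, and Clock was at 0.05.

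Stbd1 has no close relative among the lists, and was set beside 31 genes of glycogen and of the autophagy that takes it up, all tested. At the end of the infusion 1 of 31 passed, and fell, beside 2.2% of all genes that passed and were lower, and 0 of 31 passed at either later time. An unadjusted p under 0.05 was seen for 3 higher and 5 lower genes in AngII, 3 higher and 4 lower in AngII+2W, and 2 higher and 3 lower in AngII+3W. Over all genes the shares in either direction were 20.2%, 10.7% and 12.5%. The gene that passed was Map1lc3a, an autophagosome gene, at 90.1 ± 5.48 CPM in CTRL and 57.0 ± 4.18 CPM in AngII (SD, n = 2), with a log2 fold change of -0.66 (SE 0.127) and an adjusted p of 0.0321 in edgeR's test, and at -0.48 and -0.46 in the later groups. It did not pass without any of the libraries of CTRL, AngII or AngII+2W in turn. The median log2 fold changes of the list were -0.04, 0.04 and 0.21. Pygl, the glycogen phosphorylase of liver, Ppp1r3b, which brings a phosphatase to glycogen, and the branching enzyme gene Gbe1 had the highest mean levels of the list. Their estimates were above 0 in AngII+2W, at 0.79 (SE 0.199), 1.17 (SE 0.314) and 0.40 (SE 0.202), with adjusted p-values of 0.274, 0.299 and 0.547 in edgeR's test. DESeq2 called Pygl and Ppp1r3b higher there. Of the 31 genes, 14 had an estimate below 0 in AngII+2W, so that these 3 do not stand for the list. Stbd1 at the same time was at -0.90.

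**Figure D3:**
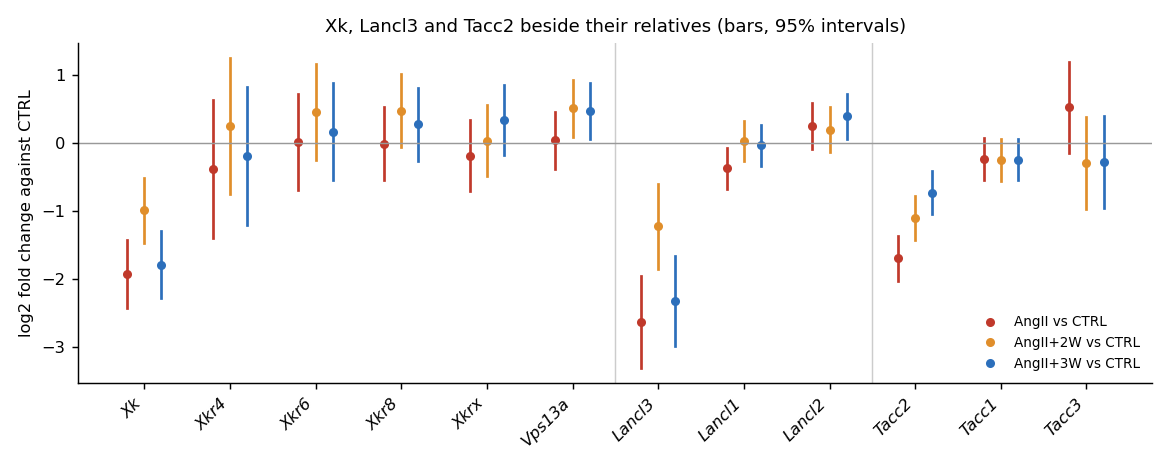
Log2 fold changes against CTRL (y axis) of Xk, Lancl3 and Tacc2 and of tested genes of their families and Vps13a, with 95% intervals as bars, for AngII (red), AngII+2W (orange) and AngII+3W (blue). The estimates of the relatives lie between -0.38 and 0.53, while those of Xk, Lancl3 and Tacc2 lie between -2.62 and -0.73.

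Genes within 500 kb were compared to see whether the low levels covered a region. Around Lancl3 and Xk the table lists 35 other genes, of which 5 were tested. The nearest tested gene on the left, the pseudogene Gm16479 at 243 kb, had log2 fold changes of 0.44 in AngII and 0.33 in AngII+3W, and on the right Cybb, a subunit of the phagocyte NADPH oxidase at 122 kb, had 1.06 (adjusted p = 0.0719 in edgeR's test) and 0.11. Only H2al1m, a histone variant gene of the testis, passed, and only in AngII, where 5.1% of all genes passed, against 0% in AngII+2W and 0.285% in AngII+3W. It lies at chrX:9283764-9284298, in intron 2 of Xk and on its strand. The CTRL pair had 24 and 32 counts of H2al1m, the AngII pair 2 and 6, the AngII+2W pair 12 and 7, and the AngII+3W pair 5 and 3. The log2 fold changes in order of time were -2.70 (adjusted p = 0.0395 in edgeR's test), -1.49 and -2.60. As for Xk, both AngII+2W libraries lay below CTRL and above the 4 libraries of AngII and AngII+3W. The counts were made on transcripts, so reads from unspliced Xk RNA over this interval and reads from an H2al1m transcript cannot be told apart. The call was lost without either library of CTRL, AngII or AngII+2W. There are 10 similar genes, 85.2% to 99.6% identical over the matched part, of which H2al1k, the most alike, had up to 8 counts and the other 9 had 0 counts in every library. Gm14862, which shares exon bases with Lancl3 on the opposite strand, had at most 4 counts in a library.

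Around Stbd1 16 genes were tested, of which 2 passed in AngII, both lower, beside 2.2% of all genes, and 0 at the later times. These were Shroom3, an actin-binding protein, with a log2 fold change of -1.47 (adjusted p = 0.0304 in edgeR's test) and Art3, an ADP-ribosyltransferase family gene, with -1.11 (adjusted p = 0.0186 in edgeR's test). The nearest tested genes did not pass: Ccdc158, 1.38 kb to the right, was at -0.25 in AngII and 0.81 in AngII+3W, and Fam47e, 11.8 kb to the left, at -0.60 and 0.28. Around Tacc2 6 genes were tested, of which 1 passed in AngII and in AngII+3W, beside 2.2% and 0.268% of all genes that passed and were lower. It was Fgfr2, a receptor of fibroblast growth factors whose annotated span covers Tacc2 on the opposite strand without a shared exon, with log2 fold changes in order of time of -1.02 (adjusted p = 0.0331), -0.52 and -1.47 (adjusted p = 0.0455 in edgeR's test). Without AngII+3W replicate 1 the last was -1.20, with an adjusted p of 0.0907 in edgeR's test. The calls of Shroom3, Art3 and Fgfr2 in AngII were lost without any 1 library of CTRL or AngII. Those of Shroom3 and Fgfr2 were lost also without either AngII+2W library. With library totals alone they were lost too (adjusted p = 0.0520 and 0.0645 in edgeR's test). Nsmce4a, 4.32 kb to the left, was at -0.17 and -0.06 in AngII and AngII+3W, and Btbd16, 9.28 kb to the right, at -0.30 and 0.24.

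**Figure D4:**
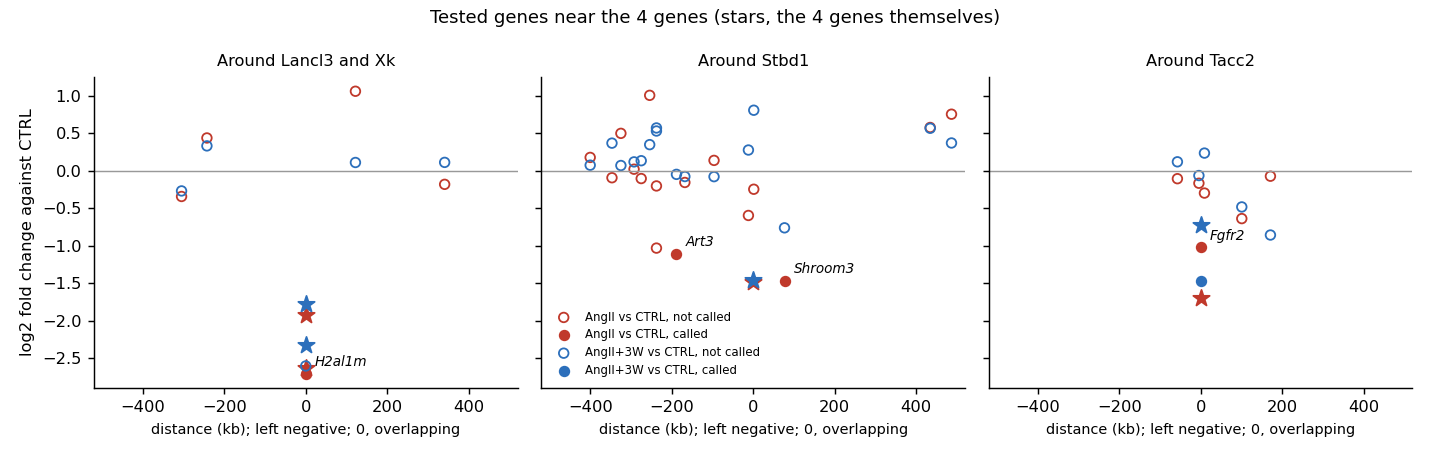
Log2 fold changes against CTRL (y axis) of the tested genes within 500 kb of the 4 genes, by their distance in kb (x axis, left negative, 0 for genes that overlap), in AngII (red) and AngII+3W (blue). Filled points passed an adjusted p of 0.05, stars are the 4 genes themselves, and the named points are H2al1m, Art3, Shroom3 and Fgfr2.

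The sum of smooth muscle markers, like the 4 genes, was below CTRL in every AngII library. It was lower in AngII+3W than in AngII+2W, as were Xk, Lancl3 and Stbd1, while Tacc2 was higher. The summed level of Acta2, Myh11, Tagln and Cnn1 ranged from 6319 to 8289 CPM over the CTRL pair, from 1380 to 1762 over the AngII pair, from 2937 to 3336 over the AngII+2W pair and from 1323 to 2500 over the AngII+3W pair, and none of these markers was at 0. Of 12 smooth muscle contractile genes 9 passed and were lower at the end of the infusion, beside 2.2% of all genes, 0 did 2 weeks later, and 5 did 3 weeks later, beside 0.268%, with median log2 fold changes of -2.02, -1.12 and -1.42. In AngII+3W 0 passed without its replicate 1, and in AngII 1 passed without CTRL replicate 1 and 0 without AngII replicate 2. Acta2, smooth muscle actin, was at -2.18, -1.35 and -2.56, Tagln at -2.15, -1.08 and -2.09, and the myosin gene Myh11 at -2.26, -1.16 and -1.54. The correlation with the marker sum over the 8 libraries was 0.983 for Stbd1, 0.941 for Xk, 0.925 for Lancl3 and 0.802 for Tacc2, as a description. In bulk tissue, fewer smooth muscle cells and less RNA in each of them cannot be told apart.

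Set against these markers, Xk was below both CTRL libraries in 1 of the 6 AngII libraries and above both in the rest. Lancl3 was below both in 2 of the 6. Per 1000 marker counts, the CTRL pair had 4.09 and 3.66 counts of Xk, the AngII pair 5.68 and 4.11, the AngII+2W pair 4.70 and 4.46, and the AngII+3W pair 6.58 and 3.14. For Lancl3 the CTRL pair had 3.17 and 2.57, the AngII pair 2.58 and 1.88, the AngII+2W pair 3.11 and 2.67, and the AngII+3W pair 3.66 and 1.46, and each of these ranges overlapped that of CTRL. For Stbd1 the values were 4.76 and 5.33 in CTRL and between 5.55 and 8.71 in the 6 AngII libraries, all above CTRL. Tacc2 had 42.0 and 45.7 in the CTRL pair, 72.0 and 55.4 in the AngII pair, 42.9 and 52.3 in the AngII+2W pair, and 141 and 79.3 in the AngII+3W pair. Relative to the markers, Tacc2 thus lay above CTRL in both libraries of AngII and of AngII+3W. The value of 141 is that of AngII+3W replicate 1, the library with the highest striated muscle markers. These markers are themselves lower after AngII, so the ratios compare 2 changes and do not count cells. A gene that fell less than the markers lies higher on this scale, and the share of all genes above CTRL on it was not counted.

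**Figure D5:**
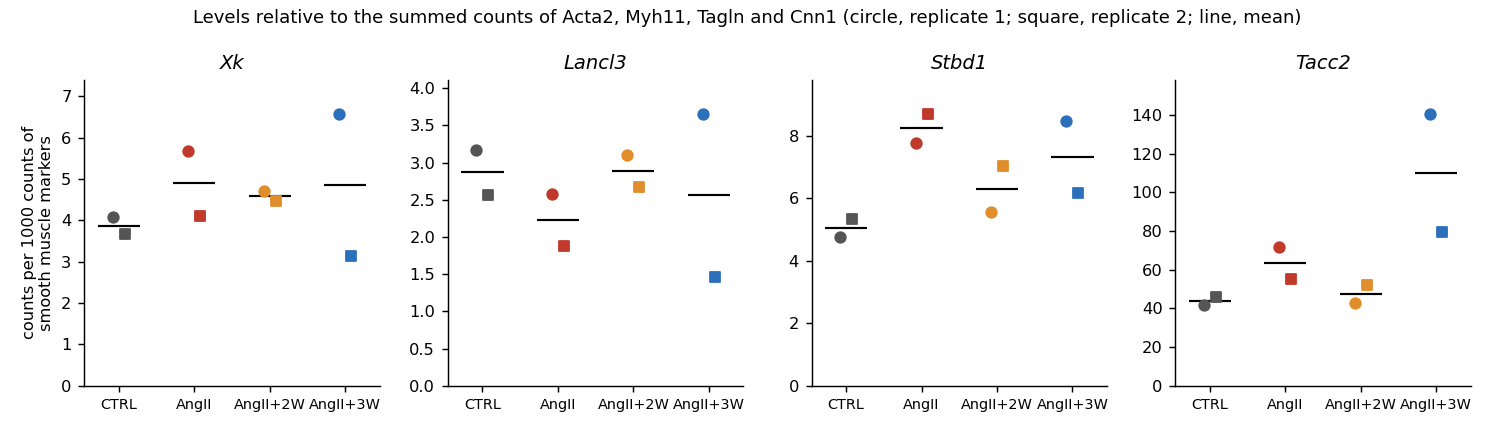
Counts of the 4 genes per 1000 counts of Acta2, Myh11, Tagln and Cnn1 (linear axes from 0) in the 8 libraries; circles are replicate 1, squares replicate 2, and lines the group mean. The CTRL and AngII ranges overlap for Lancl3 alone, and the highest value of Tacc2, 141, is in AngII+3W replicate 1.

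Markers of other cells moved too. Cardiac muscle markers summed to 4478 and 1958 CPM for the CTRL pair, 1202 and 692 for the AngII pair, 146 and 7.20 for the AngII+2W pair, and 5149 and 314 for the AngII+3W pair. Tacc2 and Xk are also known from striated muscle. The 2 AngII+3W libraries, which differed most in striated muscle markers, had 186 and 198 CPM of Tacc2 and 8.71 and 7.84 CPM of Xk. The CTRL pair, with 4478 and 1958 CPM of cardiac muscle markers, had 348 and 289 CPM of Tacc2 and 33.9 and 23.1 CPM of Xk. There both genes were higher in the library with more of these markers. In the AngII and AngII+2W pairs, too, replicate 1 had more of them. Xk was at 7.83 against 7.25 CPM in AngII and 15.7 against 13.1 CPM in AngII+2W. Tacc2 was at 99.3 against 97.6 CPM in AngII and 143 against 154 CPM in AngII+2W, replicate 1 first. In AngII+3W, Xk was higher and Tacc2 lower in the library with more of these markers. Red cell markers, among them the hemoglobins, ranged over the pairs of libraries from 4296 to 4358 CPM (CTRL), 3022 to 3062 (AngII), 980 to 2559 (AngII+2W) and 787 to 1183 (AngII+3W). Fibroblast markers, at 968 to 1589 CPM in CTRL, were at 7152 to 11842 CPM in AngII, 2178 to 3049 CPM in AngII+2W and 752 to 2283 CPM in AngII+3W. Macrophage markers, taken in the same order from CTRL, were at 91.3 to 112, 226 to 340, 143 to 148 and 93.7 to 148 CPM, and Schwann cell markers at 17.4 to 34.6, 9.95 to 12.5, 19.4 to 21.6 and 50.3 to 56.0 CPM. The part of these cells in the levels of the 4 genes was not tested.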

How the data were processed

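The authors depleted ribosomal RNA, quantified reads against transcripts with Salmon and summed them to genes with tximeta. The deposited table holds these expected counts per gene as whole numbers, without normalization; the strand setting is not given in the sources used here. Members and gene lists were chosen with earlier results of these data known. Genes named are the 4 members, all family and partner genes, of the glycogen list those that passed and otherwise the 3 most abundant, Acta2, Myh11 and Tagln, neighbours that passed or were nearest, and the 3 genes most correlated with each member, of which 1 is not reported here. H2al1k, Gm14862 and Myl9 were named after their values were seen.

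All 8 libraries were fitted in 1 model with edgeR 4.0.16 (R 4.3.3; filterByExpr, TMM, quasi-likelihood F test, two-sided, Benjamini-Hochberg over 17182 genes, threshold 0.05), which left 4 residual degrees of freedom. The SE is the log2 fold change over the root of F. Correlations used log2 CPM with a prior count of 2. Copies were searched with BLAST 2.17.0 (at least 90% identity over 100 bases for the 4 genes). Alternatives were other scalings and filters, DESeq2 1.42.0, fits of the 2 groups compared, a replicate block and leaving out each library. An exact permutation test of 2 against 2 cannot go below p = 0.33 and was not used. The labels do not tie same-numbered libraries of different groups to the same mice, and p-values cover the spread between pools.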

Additional observations from a re-analysis of the deposited data

How the results depend on the processing

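The log2 fold changes of the 4 genes kept their direction under every alternative run in AngII, AngII+2W and AngII+3W against CTRL, AngII+2W against AngII and AngII+3W against AngII+2W. AngII+3W against AngII, added after seeing the data, kept it for Xk, Lancl3 and Tacc2. Stbd1 reversed to -0.027 with library totals alone, and ranged from -0.27 to 0.30 when a library was left out. DESeq2 in place of edgeR took all 4 past the threshold in AngII+2W against CTRL (Xk -0.99, Lancl3 -1.22, Stbd1 -0.90, Tacc2 -1.10) and 3 in AngII+2W against AngII (Xk 0.93, Lancl3 1.40, Tacc2 0.59). It called 373 and 685 genes in these comparisons, against 0 and 28 in edgeR. With only the 2 groups compared, AngII+2W against AngII passed for Xk (0.94, adjusted p = 0.0324 in edgeR's test), Lancl3 (1.41, adjusted p = 0.0247) and Tacc2 (0.59, adjusted p = 0.0266), and 884 of 16546 genes (5.34%) did. With every gene of at least 1 count, Lancl3 passed there (1.41, adjusted p = 0.0458 in edgeR's test), and 242 of 24427 genes (0.991%) did. The cause was not tested. Leaving out each library gave -1.23 to -0.67 for Xk, -1.53 to -0.82 for Lancl3, -1.01 to -0.77 for Stbd1 and -1.23 to -0.95 for Tacc2 in AngII+2W against CTRL. Tacc2 was at -1.11 there without AngII+3W replicate 1 and at -1.11 without AngII+3W replicate 2. These libraries are in neither group and enter through the shared spread. A group left with 1 library is assumed to vary like the others.

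Of the family, partner and glycogen genes, 1 was called in AngII, 5 with DESeq2, 2 with only the 2 groups compared, and 0 to 3 when a library was left out. In AngII+2W 0 were called, 2 with DESeq2, and 0 to 2 when a library was left out (2 without AngII+3W replicate 1 or replicate 2). In AngII+3W 0 were called throughout. Over all genes tested, 877 were called in AngII and 49 in AngII+3W, 1592 and 587 with DESeq2, 622 and 1 with library totals alone. Leaving out a library gave 0 to 1504 in AngII (0 without AngII replicate 2, 29 without CTRL replicate 1) and 0 to 463 in AngII+3W, with 0 without CTRL replicate 1 or any library of AngII or AngII+2W, and 1 without AngII+3W replicate 1. Calls of named neighbors and contractile genes were recomputed after seeing the data. Fgfr2 in AngII+3W kept its call in 1 of the 8 fits that left out a library, without AngII+3W replicate 2, and lost it with library totals alone, the replicate block and only the 2 groups compared. When a library was left out, contractile calls numbered between 0 and 12 at the end of the infusion and between 0 and 9 at 3 weeks. With only the 2 groups compared, 0 were called in AngII+3W.

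Same-numbered libraries share only a number, with correlations of their deviations between -0.01 and 0.33 over 15159 genes. With the replicate block the AngII+2W against CTRL values were -0.97 for Xk, -1.20 for Lancl3, -0.91 for Stbd1 and -1.10 for Tacc2. No call of the 4 genes changed in the comparisons that hold AngII+2W. In AngII and AngII+3W against CTRL, which chose the genes, their calls were not examined. The block called 4 genes of the table in AngII+3W, against 49 without it.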
